A study of Mus musculus with 477 samples.

Results

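The nuclear genes of oxidative phosphorylation were examined in single mammary luminal and tumor cells of mice that lack *Brca1*, carry floxed *Trp53*, or both. Members were all genes of the table whose symbol starts with Nduf followed by a, b, c, s or v and a digit, with Uqcr, with Cox4 to Cox8 or with Atp5, together with *Sdha* to *Sdhd*. This gave 83 of 21004 genes, of which 37 were assigned to complex I, 4 to complex II, 8 to complex III, 17 to complex IV and 17 to complex V. Complexes follow the symbols, so that *Ndufa4*, whose protein is known as a component of complex IV, is counted with complex I. Br stands for MMTV-Cre; Brca1 fl/fl, 53 for MMTV-Cre; Trp53 fl/+, and Br53 for MMTV-Cre; Brca1 fl/fl; Trp53 fl/+, as in the methods of the study, which elsewhere gives Trp53 fl/fl for young mice with these deletions, so that the number of floxed *Trp53* alleles in the luminal mice is uncertain. All luminal mice also carried ROSA mT/mG, which marks cells with active Cre by green fluorescence, and all mice were females of mixed C57BL/6 and 129/Sv background. Luminal glands came from virgin mice (prefix v) or from mice at day 12.5 of pregnancy (prefix p), which were 3 to 4 months old, and tumors (T) were taken at a diameter of about 1 cm. MMTV-Cre acts in the mammary epithelium and in some other tissues, and its deletion is not complete in every cell. The luminal cells (L) were sorted as CD24-high, CD29-low and green, and the tumor cells as CD24-positive. Cells were taken as coming from 11 mice, with 30 to 71 cells each. The luminal mice were vBrL, vBr53L, v53L, pBrL-1, pBrL-2, pBr53L and p53L, and the tumor mice were BrT1, BrT2, Br53T1 and Br53T2.

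Oxidative phosphorylation passes electrons from NADH (complex I) and succinate (complex II) through complex III to oxygen at complex IV, while complexes I, III and IV pump protons across the inner mitochondrial membrane and complex V, the ATP synthase, uses the gradient to make ATP. Most subunits are encoded in the nucleus and imported, and their transcription is known to depend in part on NRF1, on the ETS factor GABPA and on YY1. In the mammary gland, mitochondria multiply in alveolar cells as the tissue prepares for milk production. The few subunits encoded in mitochondrial DNA were not analysed here, since 0 rows of the table carried their symbols.

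The 250 bases before the RefSeq transcription start (GRCm38.p6) are shown for 6 members on which the results below turn. *Ndufc2* and *Ndufb5* had the lowest p-values in the tumor comparison and *Atp5b* had it in the pregnancy comparison, *Ndufa8* lay higher in every tumor than in any luminal mouse, *Sdha* held the most NRF1 matches, and *Cox6a1* had the highest level per length. Capitals mark matches, on either strand, to the NRF1 motif of 10 bases, the ETS letters CCGGAAG or the 10-base YY1 motif.
Ndufc2, chr7:97399753-97400002, plus strand: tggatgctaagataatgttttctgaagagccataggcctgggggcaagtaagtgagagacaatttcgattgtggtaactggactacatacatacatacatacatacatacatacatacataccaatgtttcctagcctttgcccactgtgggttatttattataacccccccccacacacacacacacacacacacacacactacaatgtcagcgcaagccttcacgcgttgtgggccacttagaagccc
Ndufb5, chr3:32736813-32737062, plus strand: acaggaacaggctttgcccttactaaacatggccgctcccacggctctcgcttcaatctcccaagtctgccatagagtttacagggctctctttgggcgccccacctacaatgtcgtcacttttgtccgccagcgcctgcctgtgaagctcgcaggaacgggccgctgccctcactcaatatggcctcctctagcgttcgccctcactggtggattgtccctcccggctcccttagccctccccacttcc
Atp5b, chr10:128083057-128083306, plus strand: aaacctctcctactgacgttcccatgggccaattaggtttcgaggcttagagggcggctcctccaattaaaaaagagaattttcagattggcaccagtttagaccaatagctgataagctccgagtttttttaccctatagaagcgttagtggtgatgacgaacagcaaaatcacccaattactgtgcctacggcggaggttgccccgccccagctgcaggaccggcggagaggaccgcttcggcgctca
Ndufa8, chr2:36049339-36049588, minus strand: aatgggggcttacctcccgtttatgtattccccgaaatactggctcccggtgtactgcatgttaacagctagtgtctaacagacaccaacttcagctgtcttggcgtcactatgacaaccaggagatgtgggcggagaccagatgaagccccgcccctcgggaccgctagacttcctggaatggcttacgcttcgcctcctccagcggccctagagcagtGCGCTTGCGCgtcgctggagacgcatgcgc
Sdha, chr13:74350241-74350490, minus strand: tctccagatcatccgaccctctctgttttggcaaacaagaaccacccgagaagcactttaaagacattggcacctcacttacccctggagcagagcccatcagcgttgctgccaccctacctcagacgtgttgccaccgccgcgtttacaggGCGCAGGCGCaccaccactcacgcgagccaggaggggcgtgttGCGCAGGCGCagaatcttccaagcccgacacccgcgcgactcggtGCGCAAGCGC
Cox6a1, chr5:115348959-115349208, minus strand: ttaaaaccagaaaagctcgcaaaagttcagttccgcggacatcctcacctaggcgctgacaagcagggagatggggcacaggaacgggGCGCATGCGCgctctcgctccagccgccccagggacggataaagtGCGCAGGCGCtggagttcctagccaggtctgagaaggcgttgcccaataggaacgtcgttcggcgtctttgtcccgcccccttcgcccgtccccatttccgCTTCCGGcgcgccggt

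A promoter was found in the RefSeq table for 65 of the 83 members. Over the window from 250 bases before to 50 after the start, the NRF1 motif occurred in 15 of 65 members (23.1%), against 1058 of 10155 genes (10.4%) with a promoter that were tested or are members. The ETS letters occurred in 15 members (23.1%, against 18.3%) and the YY1 motif in 4 (6.15%, against 2.14%). Matches can overlap and a promoter can hold more than 1 of the motifs, and 29 of 65 members (44.6%) held at least 1, against 2840 of 10155 of all. By complex, the share with any match was 13 of 31 in complex I, 3 of 3 in complex II, 3 of 5 in complex III, 3 of 13 in complex IV and 7 of 13 in complex V. Members with and without a match are given side by side, with no test: the median log2 fold change was -0.39 with and -0.36 without in tumors, and 0.12 with and 0.25 without in pregnancy. A match is a run of letters and no binding was measured.

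The mice had 40338926 to 115827852 reads each, and a cell had 170209 to 3550564 reads. *Brca1* ranged from 2.03 to 31.8 CPM (reads of a gene per 1000000 reads of the mouse) in the Brca1-deficient luminal mice, from 5.21 to 6.99 in the 53 mice and from 1.70 to 57.2 in tumors. These ranges overlapped, and reads outside the floxed exons do not check a deletion. *Trp53* ranged from 92.5 to 515 CPM in luminal mice and from 5.05 to 140 in tumors. The 6 luminal markers fixed for the comparison had a sum of at least 7404 CPM in a luminal mouse and at most 6135 in a tumor, with *Krt19* and *Cdh1* at 0 reads in BrT1, so the luminal label held for the luminal mice and least for BrT1. Mesenchymal markers had a sum of at most 104.2 CPM in a luminal mouse and from 158.6 to 9458 in a tumor. Fibroblast markers reached 4955 CPM in BrT1 and 712 in vBrL, and were between 0.117 and 579 elsewhere. Casein reads made up 3.48% to 17.4% of a luminal library and 0.38% or less of a tumor library. Of the 8 chips, SC6 held Br53T2 and pBrL-2, SC7 held both Br53 luminal mice, SC9 held both 53 luminal mice and every other chip held 1 mouse. Only the mouse counts as a replicate. The deposited values measure shares of the reads of a cell, so a change of all RNA in a cell cannot be seen.

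The 83 genes together took 13063 to 19948 CPM in the 11 mice, and each of them had at least 1 read in some mouse. Among virgin mice the sum was lowest in v53L (14779 CPM), followed by vBrL (15534) and vBr53L (17021). In pregnant mice it was 18224 in pBrL-1, 19326 in pBrL-2, 16743 in pBr53L and 19948 in p53L. The tumors reached 13063 (BrT2), 13487 (Br53T2), 15287 (Br53T1) and 16310 (BrT1). The pregnant mice were thus highest except that pBr53L lay below vBr53L, and the tumors overlapped the virgin mice. The mean was 15780 ± 1140 (SD, n = 3) in virgin mice, 18560 ± 1410 (n = 4) in pregnant mice and 14540 ± 1530 (n = 4) in tumors. With the casein reads left out of the total the means were 16390, 21370 and 14580 CPM. The median coefficient of variation over the 11 mice was 27.1% for the 73 members with a mean of at least 10 CPM and 58.1% for 8766 other genes with a mean of 10 to 1500 CPM. Members lie at higher levels than most of those genes, and between 100 and 300 CPM the medians were 27.2% (48 members) and 41.8% (1457 other genes). Within the members it was lowest for *Cox8a* (12.8%) and highest for *Atp5l* (67.7%) and *Ndufa12* (57.8%).

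**Figure D1:**
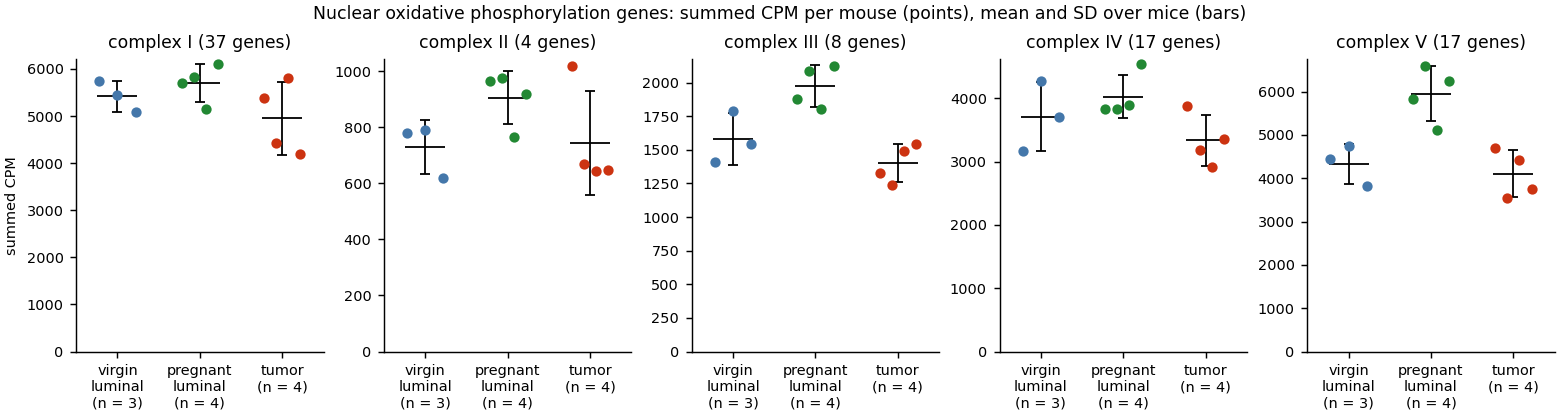
Summed CPM of the members of each complex (y axes, from 0) in virgin luminal, pregnant luminal and tumor mice, 1 point per mouse, with the mean and SD over mice as bars. For complex V the 4 pregnant mice, from 5113 to 6599 CPM, lie above all 3 virgin mice (3824 to 4734) and all 4 tumors (3549 to 4696), while the groups overlap for complex I.

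The share of complex V in the summed CPM was higher in pregnant mice than in all others. It made up 31.4% of the summed CPM of the members in p53L, 30.5% in pBr53L, 32.04% in pBrL-1 and 34.2% in pBrL-2. In virgin mice its share was 25.9% in v53L, 27.8% in vBr53L and 28.6% in vBrL. The 4 tumors lay between 27.2% and 28.97%, so that the pregnant mice stood above both other groups without overlap. This depended on the scale and on a pair of abundant genes. Per length (TPM, explained below) the share was 16.94% to 19.74% in pregnant, 14.34% to 16.75% in virgin and 15.27% to 17.20% in tumor mice, so that Br53T1 overlapped the pregnant mice. Without *Atp5a1* and *Atp5b* the CPM share was 20.07% to 22.06% in pregnant and 18.67% to 20.98% in virgin mice, which overlap, and the tumors, at 19.04% to 22.43%, overlapped both. Both scales were added after the data were seen. Complex I showed the opposite order within the luminal mice, with 30.2% to 31.3% in pregnant mice against 31.95% to 36.98% in virgin mice, but per length the stages overlapped, with 33.79% to 34.83% against 34.18% to 40.23%. The tumors ranged from 31.1% in Br53T2 to 37.97% in Br53T1 and overlapped both. Shares of a fixed sum depend on each other, and they do not depend on the casein reads or on the scaling between libraries.

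**Figure D2:**
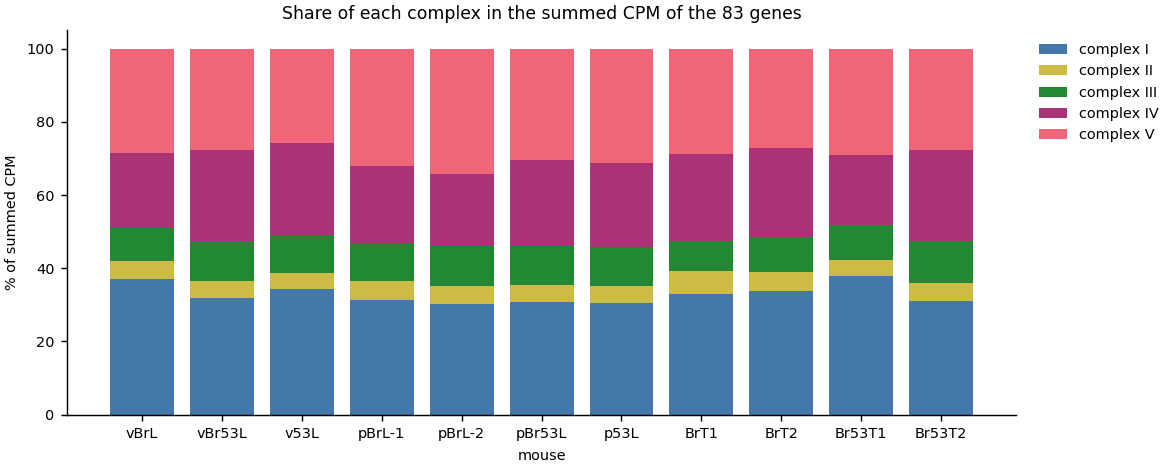
Share of each complex in the summed CPM of the 83 genes (y axis, percent) for each of the 11 mice (x axis), as stacked bars. The complex V segment is 30.5% to 34.2% in the 4 pregnant luminal mice and 25.9% to 28.97% in the other 7 mice.

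Levels of different genes were compared per length, as TPM (reads divided by the merged exon length of GENCODE vM21, scaled to a sum of 1000000). *Cox6a1*, a small subunit of complex IV, had the highest mean level over the 11 mice, 5899 TPM, ahead of *Cox4i1* with 2056. The highest in the other complexes were *Ndufa1* in complex I (1441 TPM), *Atp5c1*, the gamma subunit of the ATP synthase (1169), *Uqcr10* in complex III (1053) and *Sdhd*, a membrane anchor of succinate dehydrogenase (613). The genes with few reads were mostly isoforms known from other tissues. *Cox4i1* made up at least 99.2% of the *Cox4* pair per length in every mouse. *Cox8a* made up at least 99.0% of its family, and the muscle isoform *Cox8b* had reads only in 5 of the 7 luminal mice, at no more than 1.26 CPM. The testis isoform *Cox7b2* had 4 reads in all, in pBrL-1, and *Cox8c* was read only in pBrL-2 (1.38 CPM). *Ndufa4l2*, known for its induction under hypoxia, had at most 0.231 CPM. Of the 3 genes for the identical c subunit of the ATP synthase, *Atp5g3* made up 91.9% to 94.6% per length, and *Atp5g2* at most 1.12%. In the *Cox7a* family, *Cox7a2* led in every mouse with 55.5% to 85.4%, *Cox7a2l* followed with 12.9% to 36.6%, and the muscle isoform *Cox7a1* had 1.58% to 7.90%, highest in Br53T1.

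*Cox6b2*, known from testis, was read in some tumors and not in others. It had 19.15 CPM in BrT2 and 10.98 in Br53T2, and no read in BrT1 or Br53T1. In the 7 luminal mice it lay between 0.794 and 3.45 CPM. After every cell was thinned to 100000 reads, 13 of 37 BrT2 cells (35.1%, exact 95% binomial interval 20.2% to 52.5%) had a read of it, and 4 of 51 Br53T2 cells (7.84%, 2.18% to 18.9%). The share in luminal mice was 2.56% to 10.5%, and the 0 of 47 cells in BrT1 allow a share of up to 7.55% of cells with a read at this depth, which is not a limit on cells that express the gene. These intervals cover counting error within 1 mouse and not the spread between mice. Its partner *Cox6b1* still made up 94.4% of the pair per length in BrT2.

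Tumors were set against Brca1 mutant luminal cells in the study to look for genes that drive or mark tumor formation. In the 4 tumors against the 5 Brca1-deficient luminal mice, 0 of 79 tested members passed an adjusted p of 0.05 in edgeR, whereas 51 of 12978 genes (0.393%) were called higher and 28 (0.216%) lower. At an unadjusted p under 0.05, 12 members were lower (15.2%, against 5.80% of all genes) and 1 was higher (1.27%, against 7.98%). DESeq2 called 4 members, *Ndufc2*, *Ndufb5*, *Ndufb6* and *Atp5mpl*, all lower (5.06%, against 2.47% of genes with a DESeq2 adjusted p), and 0 higher (against 4.0%). Limma on mean CPM called 0 members and 296 of 12978 genes. The 4 members left out of the test had too few reads. Tumors and Brca1-deficient luminal mice did not overlap for 7 members that were lower (8.86%, against 2.51% of all genes) and 2 that were higher (2.53%, against 5.01%). The log2 fold change was below 0 for 65 of 79 members (82.3%), against 47.4% of all genes, and its median was -0.38 in members and 0.06 in all genes. The median was similar in each complex, at -0.34 in complex I, -0.39 in II, -0.46 in III, -0.36 in IV and -0.42 in V. Scaling by library size alone moved the median of all genes by more than 0.1, to 0.20, and that of the members to -0.23, so the distance between them stayed at -0.43 in both. Other genes at 100 CPM or more had a median of -0.14, and the 35 of them that are also under 1000 bases long had -0.63. Within chip SC6, Br53T2 lay below pBrL-2 for 58 of 72 members, with a median log2 difference of -0.34 against 0.12 over all genes. Luminal, mesenchymal and alveolar markers (alveolar at least 17650 CPM in a luminal mouse and at most 3742 in a tumor) and caseins moved with the tumor label. So did the sort gate, also within SC6, and, except for Br53T2, the chip. For the other tumors the effect of chip and of tumor cannot be told apart. The study reports that Br tumors form at a later age than that of the luminal mice, and the ages of these tumor mice are not given here. The part of the markers, the gate and age in this difference was not tested. With caseins left out of the counts the median was -0.40.

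**Figure D3:**
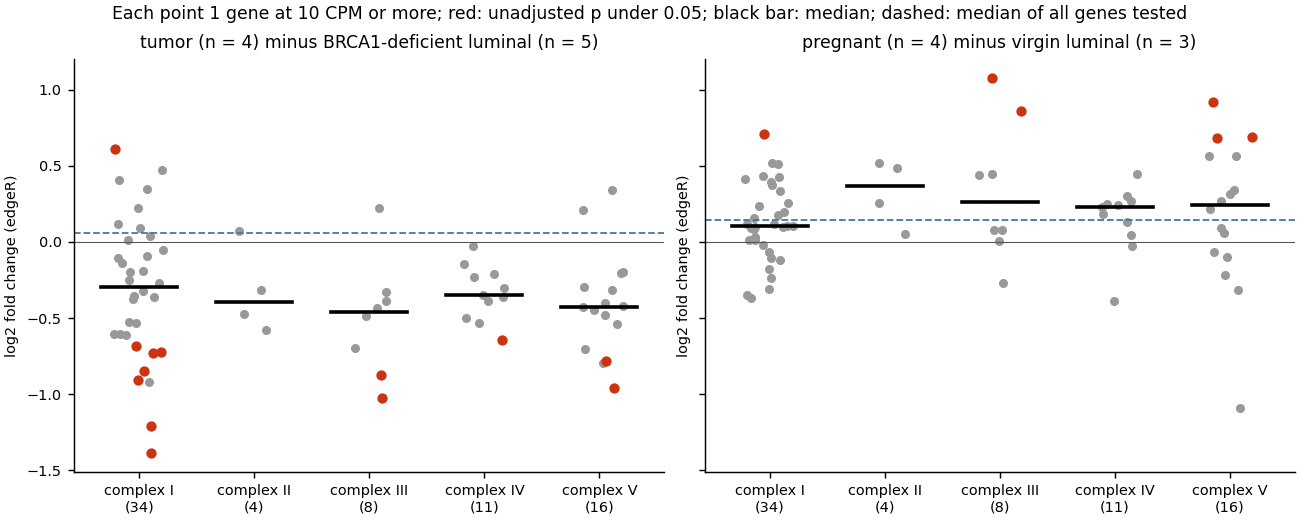
Log2 fold change from edgeR (y axis) of each member with a mean of at least 10 CPM, by complex (x axis), for tumor minus Brca1-deficient luminal mice on the left and pregnant minus virgin luminal mice on the right. Black bars are medians, the dashed line is the median of all genes tested and red points have an unadjusted p under 0.05. On the left 60 of 73 points lie below 0, and on the right 56 of 73 lie above 0.

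*Ndufc2*, a subunit of the membrane arm of complex I, had the smallest p of all members. Its level was 196.2 CPM (vBr53L) and 240.7 (vBrL) in virgin mice and 248.5 (pBrL-2), 251.1 (pBr53L) and 319.7 (pBrL-1) in pregnant ones. In tumors it was 81.1 in Br53T2, 96.2 in Br53T1, 114.0 in BrT1 and 127.4 in BrT2, and the 53 mice had 174.6 (v53L) and 326.8 (p53L). Every tumor was therefore below every luminal mouse. The log2 fold change was -1.39 ± 0.28 (SE), with an edgeR adjusted p of 0.0537, which became 0.0255 with all 7 luminal mice (where 0.99% of all genes were called higher and 0.62% lower) and ranged from 0.000559 to 0.505 over the alternatives. After thinning, 68.6% to 93.3% of the cells of each tumor had a read of it, against at least 90% in luminal mice.

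*Ndufb5* and *Ndufb6* belong to the same arm. For *Ndufb5*, the tumors were almost equal to each other, with 132.2 CPM (Br53T1), 134.7 (BrT1), 137.9 (Br53T2) and 140.5 (BrT2). The Brca1-deficient luminal mice had 241.9 (vBrL), 185.7 (vBr53L), 231.7 (pBrL-1), 282.7 (pBrL-2) and 228.1 (pBr53L). There was no overlap, and the log2 fold change was -0.91 ± 0.24 (SE, edgeR adjusted p = 0.119). The adjusted p was 0.0424 with all 7 luminal mice and 0.00806 with DESeq2, and reached 0.541 in another alternative. For *Ndufb6* the tumors had 34.98 CPM in BrT2, 48.8 in Br53T1, 66.5 in Br53T2 and 84.3 in BrT1, and the luminal mice in the order above 181.2, 64.6, 136.8, 123.2 and 105.1. Here vBr53L lay within the range of the tumors, and the log2 fold change was -1.21 ± 0.36 (SE, edgeR adjusted p = 0.17). A gene on the other strand overlaps 39% of the exon bases of *Ndufb6* and 12.3% of those of *Ndufb5*, and without known strand use their reads cannot be told apart.

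In complex III, *Uqcrb* had 76.2, 59.3, 89.1 and 95.6 CPM in BrT1, BrT2, Br53T1 and Br53T2. The luminal mice had 181.4 in vBrL, 170.5 in vBr53L, 97.5 in pBrL-1, 104.1 in pBrL-2 and 177.6 in pBr53L, so that both pBrL mice were close to the tumors. The log2 fold change was -1.02 ± 0.31 (SE, edgeR adjusted p = 0.174). Of the 50-base stretches in its transcripts, 25.5% also occur in other genes, so that its count may be shared with copies. *Uqcr10*, at 0.22, was the only one of the 8 members of this complex above 0. In complex V, the small membrane proteolipid *Atp5mpl* had 88.8 to 114.9 CPM in tumors and 136.5 to 175.2 in the Brca1-deficient luminal mice, with a log2 fold change of -0.78 ± 0.24 (SE, edgeR adjusted p = 0.177). The catalytic-core gene *Atp5a1* had 828.1 CPM in BrT1 and 734.2 in Br53T1, inside the luminal range of 706.3 to 1481, but 386.2 in BrT2 and 459.4 in Br53T2. In complex II the values ran from the flavoprotein *Sdha* at -0.58 to *Sdhc* at 0.08, and in complex IV the values ran from *Cox6b1* at -0.64 to *Cox6b2* at 1.85, none past the threshold. *Atp5j2*, a membrane subunit of the ATP synthase, had the highest value in complex V, 0.34.

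In complex I, 9 of 36 members had values above 0, of which *Ndufa2* and *Ndufa8* did not overlap between tumors and luminal mice. *Ndufa2*, at the tip of the matrix arm, had 190.3, 255.7, 248.4 and 165.0 CPM in BrT1, BrT2, Br53T1 and Br53T2, against a lowest of 94.8, a median of 130.8 and a highest of 149.4 over the 7 luminal mice. Its log2 fold change was 0.61 ± 0.27 (SE, edgeR adjusted p = 0.341). *Ndufa8* had 130.7 to 172.0 CPM in tumors and 76.1 to 124.8 in luminal mice. Over all 11 mice, tumors and luminal mice did not overlap for 6 members that were lower (7.59%, against 1.35% of all genes) and these 2 that were higher (2.53%, against 3.67%). The lower ones were *Ndufc2*, *Ndufb5*, *Ndufa1*, *Ndufa3*, *Atp5mpl* and *Uqcrb*, and the largest log2 gap between the nearest mice was 0.45, in *Ndufc2*.

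**Figure D4:**
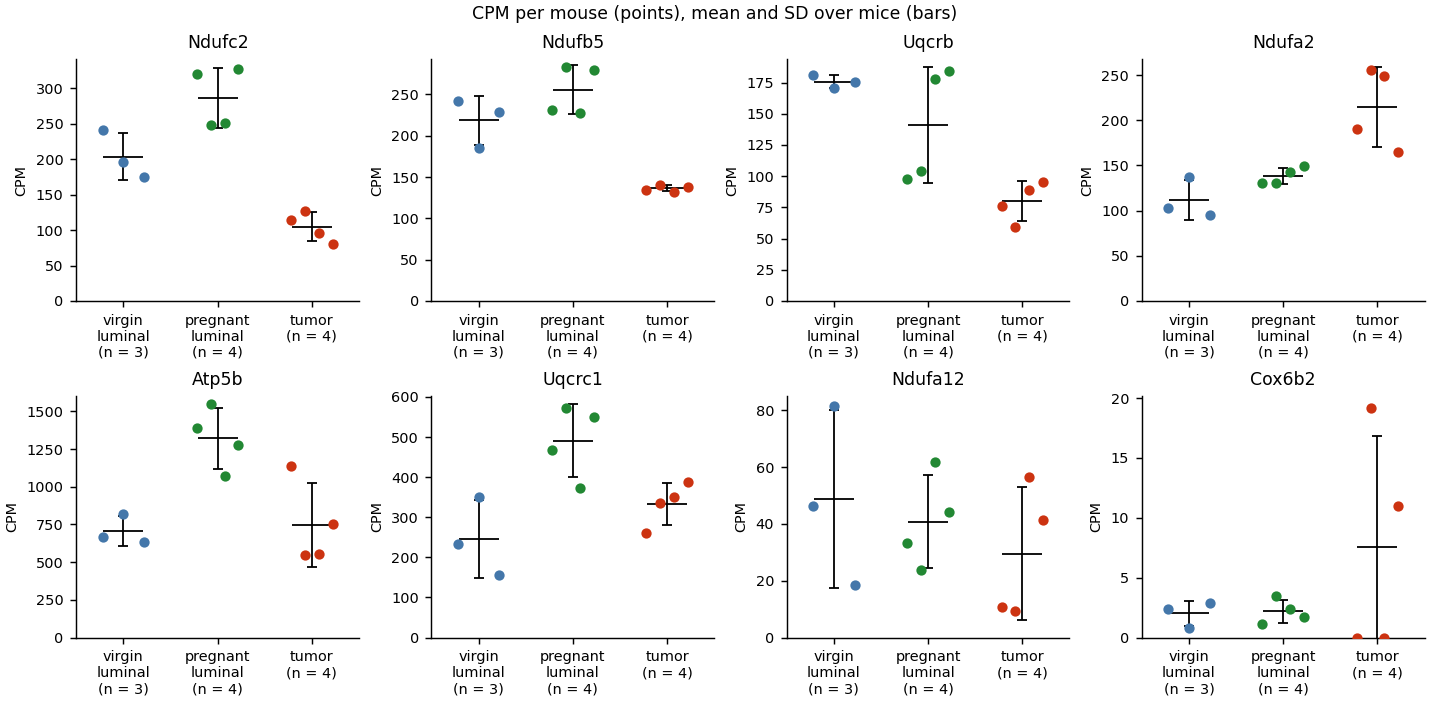
CPM of 8 members (y axes, from 0) in virgin luminal, pregnant luminal and tumor mice, 1 point per mouse, with the mean and SD over mice as bars. Tumors lie below all luminal mice for *Ndufc2*, *Ndufb5* and *Uqcrb* and above them for *Ndufa2*, pregnant mice lie above virgin mice for *Atp5b* and *Uqcrc1*, and for *Ndufa12* and *Cox6b2* the tumors differ among themselves.

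The genes around oxidative phosphorylation were counted in the same fit. Of the citrate cycle and pyruvate dehydrogenase list, 14 of 16 genes were below 0 with a median of -0.39, and 0 were called. Citrate synthase (*Cs*) had -0.91 ± 0.26 (SE, edgeR adjusted p = 0.157), and *Suclg2*, a subunit of succinyl-CoA ligase, -1.72 ± 0.49 (adjusted p = 0.149). All 10 tested genes of the carrier list were below 0, with a median of -0.55, though *Cyc1* (-0.01) and *Usmg5* (-0.11) lay near 0. This list holds electron carriers and subunits outside the symbol rule, and also *Minos1*, *Atpif1* and *Coq10b*, which are neither. The lowest was the coenzyme Q-binding gene *Coq10b* (-1.48 ± 0.33, edgeR adjusted p = 0.0652). For assembly factors 30 of 47 were below 0 with a median of -0.19, nearer to that of all genes. Among 15 regulators, *Nrf1* had -0.26, *Gabpa* 1.07, *Yy1* -0.94 and the mitochondrial transcription factor *Tfam* -1.03, with edgeR adjusted p-values of 0.863, 0.414, 0.329 and 0.370.

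Tumors also differed from each other. As log2 ratios against the luminal mean, the median over the 73 members at 10 CPM or more was -0.49 in BrT2, -0.23 in Br53T2, -0.07 in BrT1 and -0.04 in Br53T1, and the median of all other genes was 0.01, 0.30, 0.22 and 0.23 in this order. Of these members 21 were below the luminal mean in 4 of 4 tumors (28.8%, against 10.5% of all genes at that level) and 5 above it (6.85%, against 21.4%). The most extreme in BrT1 were *Ndufs7*, an iron-sulfur subunit of complex I, at 1.30 and *Ndufa3* at -2.07 (35.9 CPM, against 108.2 to 115.5 in the other tumors). In BrT2 they were *Ndufa2* at 1.02 and *Ndufa12* at -1.97. In Br53T1 they were *Ndufa11* at 1.08 and *Uqcrc2*, a core protein of complex III, at -1.62 (102.5 CPM, against a luminal range of 243.3 to 384.7). In Br53T2 they were *Atp5s* at 0.69 and *Ndufc2* at -1.59, followed by *Ndufv1* at -1.44 and *Sdha* at -1.33. The 3 highest and 3 lowest of each tumor also took in *Ndufb9* (0.80), *Ndufa13* (0.78), *Ndufa12* (-1.78) and *Atp5l* (-1.66) in BrT1. They took in *Atp5j2* (0.94), *Ndufa13* (0.60), *Ndufb6* (-1.74) and *Atp5d* (-1.37) in BrT2, *Ndufa2* (0.98), *Atp5l* (0.82), *Ndufc2* (-1.34) and *Ndufb6* (-1.27) in Br53T1, and *Atp5j2* (0.52) and *Ndufa2* (0.39) in Br53T2.

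Since chromosome gains and losses shift many neighbouring genes in tumors, each ratio was set beside the mean ratio of the other genes on the chromosome of the member. Across the 73 members, Pearson's r between these values was 0.13 in Br53T2, 0.36 in BrT1, 0.46 in BrT2 and 0.50 in Br53T1. Genes of 1 chromosome share this mean and all ratios of a tumor share its depth and scaling, so these are descriptions. *Ndufb5* on chromosome 3 lay at -0.76 to -0.84 while the mean of its chromosome was 0.25 to 0.65 in the 4 tumors. *Ndufc2* on chromosome 7 lay at -1.59 (Br53T2), -1.34 (Br53T1), -1.10 (BrT1) and -0.94 (BrT2), beside chromosome means of 0.52, -0.01, -0.32 and 0.09. *Uqcrc2*, on the same chromosome, lay at -0.03, -1.62, -0.99 and -0.21 in this order, and *Ndufa3* at -2.07 in BrT1. For *Uqcrb* on chromosome 13 the mean was -0.39 in BrT2 and 0.47 in BrT1, and the ratio of the gene was -1.34 and -0.98.

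Pregnancy was compared with the virgin state in the 7 luminal mice with genotype as covariate. In edgeR 0 of 80 members were called, and of 13709 genes 0 were called higher (0.0%) and 2 lower (0.0146%). At an unadjusted p under 0.05 there were 6 members higher (7.50%, against 4.49% of all genes) and 0 lower (against 4.49%). DESeq2 called 1 higher, *Atp5b* (1.27%, against 4.23%), and 0 lower (against 3.86%), and limma on mean CPM called 0 members and 0 of 13709 genes. The log2 fold change was above 0 for 60 of 80 members, with a median of 0.16, beside 7670 of 13709 genes and a median of 0.14, and it was below 0 for 25% of members and 44.1% of all genes. Without v53L the median was 0.041 with 33 of 81 members below 0, without p53L it was 0.042 with 32, and without vBr53L or pBr53L it was 0.266 or 0.265 with 17. Each of these fits leaves a genotype with 1 mouse, which its genotype term takes up. The whole pair of that genotype thus drops out of the stage effect. Other genes at 100 CPM or more had a median of -0.08. Pregnant and virgin mice did not overlap for 12 members that were higher (15%, against 6.11%) and 1 that was lower (1.25%, against 5.24%). The medians were 0.10 in complex I, 0.37 in II, 0.26 in III, 0.23 in IV and 0.26 in V. The stages share a chip only on SC7 and SC9. Within SC9, p53L lay above v53L for 59 of 73 members with a median log2 difference of 0.35 (all genes -0.09). Within SC7, pBr53L lay above vBr53L for 32 of 73 with a median of -0.08 (all genes -0.12), and 26 members were higher (35.6%, against 24.8% of all genes) and 8 lower (against 31.4%) on both chips. A general rise of the members therefore did not hold within each chip. Caseins and the alveolar markers, with sums of at most 27920 CPM in a virgin and at least 52190 in a pregnant mouse, moved with the stage. So did hormone-sensing markers (at least 699.7 CPM in a virgin and at most 296.8 in a pregnant mouse), fibroblast markers (at least 176.2 and at most 25.4) and basal markers (at most 69.5 and at least 88.5). The mouse v53L, the virgin mouse of SC9, had the highest hormone-sensing sum (4666 CPM) and a proliferation sum of 0.124. The part of these markers was not tested.

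The 5 members with the smallest p were led by the catalytic beta subunit of the ATP synthase, *Atp5b*. Virgin mice had 631.7 CPM (v53L), 664.9 (vBrL) and 818.2 (vBr53L). The pregnant mice had 1388 in pBrL-1, 1550 in pBrL-2, 1071 in pBr53L and 1274 in p53L, all above the virgin mice. Its log2 fold change was 0.92 ± 0.26 (SE, edgeR adjusted p = 0.362), and within chips it was 1.011 on SC9 and 0.39 on SC7. The alpha subunit *Atp5a1* had 677.3, 827.4 and 706.3 CPM in the virgin mice and 1341, 1481, 934.6 and 1103 in the pregnant mice in the same order. There was again no overlap (log2 fold change 0.69 ± 0.23, SE, edgeR adjusted p = 0.479), with 0.70 on SC9 and 0.40 on SC7. *Atp5o*, which joins the catalytic head of the ATP synthase to its peripheral stalk, had at most 295.9 CPM in a virgin and at least 341.5 in a pregnant mouse (0.69 ± 0.27, edgeR adjusted p = 0.516), with 35.6% of its exon bases overlapped by genes of the other strand.

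In complex III, the core protein *Uqcrc1* had 156.6 CPM in v53L, 234.1 in vBrL and 349.5 in vBr53L, and 466.6, 572.2, 372.2 and 550.9 in pBrL-1, pBrL-2, pBr53L and p53L. Its log2 fold change was 1.08 ± 0.36 (SE, edgeR adjusted p = 0.479), and within chips the log2 difference was 1.81 on SC9 and 0.09 on SC7. The NADH-binding subunit *Ndufv1* of complex I had at most 119.1 CPM in a virgin and at least 120.8 in a pregnant mouse (0.71 ± 0.28, edgeR adjusted p = 0.521). *Uqcrfs1*, the Rieske iron-sulfur protein, was the sixth member with p under 0.05, at 0.86 ± 0.35 (edgeR adjusted p = 0.531), and overlapped between stages because v53L had 170.8 CPM. The member that was lower without overlap was *Ndufa4*, with at least 582.4 CPM in a virgin and at most 576.6 in a pregnant mouse. In complex II *Sdhb* had the largest value (0.52) and *Sdha* the smallest (0.05), and in complexes III, IV and V the lowest were *Uqcrb* (-0.27), *Cox8b*, at 1.26 CPM or less, and *Atp5l* (-1.09), while *Cox7a1* was highest in complex IV (0.68). *Ndufs5*, with 0.505 to 12.13 CPM and 21.7% of its 50-base stretches shared with another gene, had the lowest value in complex I in both comparisons, -1.76 in pregnancy and -2.46 in tumors.

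In the citrate cycle and pyruvate dehydrogenase list 14 of 16 were above 0 with a median of 0.45, 5 of them at an unadjusted p under 0.05 (against 4.49% of all genes) and 0 called. Among them were *Pdha1* (1.07 ± 0.30, edgeR adjusted p = 0.358), *Idh3g* (1.12 ± 0.33, adjusted p = 0.421), *Idh3b* (0.74) and *Pdhb* (0.68). Of the carrier list 5 of 10 genes were above 0, among them cytochrome c1 (*Cyc1*, 1.03 ± 0.36, edgeR adjusted p = 0.490) and *Etfa* (0.88 ± 0.30, adjusted p = 0.479), which passes electrons from fatty acid oxidation. Of the assembly factors 26 of 47 were above 0, with a median of 0.16, 3 higher and 1 lower at an unadjusted p under 0.05 (against 4.49% of all genes each) and 0 called. They were *Acad9*, *Ecsit* (2.08) and *Coa3* (0.99) above and *Ndufaf7* (-1.19) below. The complex I assembly factor *Acad9* had 2.15 ± 0.42 (edgeR adjusted p = 0.197) in pregnancy and -1.99 ± 0.58 (adjusted p = 0.158) in tumors, whose 15.7 to 26.3 CPM lay within the 8.95 to 40.8 CPM of the virgin mice. The tumor and the pregnancy comparisons share the 5 Brca1-deficient luminal mice, and their values are given side by side without a test. Of the regulators 13 of 15 were above 0 with 0 called, and *Myc* had 0.69 ± 0.28 (edgeR adjusted p = 0.525).

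Genotypes were compared in the tumors and in the luminal mice. Between the 2 Br53 and the 2 Br tumors, DESeq2 called 0 members and 315 of 13477 genes, and limma called 0 members and 0 genes. By edgeR 0 of 80 members and 0 of 13477 genes (0.0% in each direction) were called, with 1 member higher at an unadjusted p under 0.05 (1.25%, against 2.40% of all genes) and 0 lower (against 1.58%). The median log2 fold change was -0.05 with 46 of 80 below 0 (57.5%, against 50.1% of all genes), and it became 0.02 with 38 of 80 below 0 when scaled by library size alone. That member was *Ndufa12*, an accessory subunit of complex I, with 10.8 CPM in BrT1 and 9.38 in BrT2 against 56.5 in Br53T1 and 41.6 in Br53T2 (log2 fold change 2.21 ± 0.85, SE, edgeR adjusted p = 1.00). In luminal mice it ranged from 18.6 to 81.4 CPM, so the Br tumors lay below and the Br53 tumors within that range. After thinning, 48.9% of BrT1 and 37.8% of BrT2 cells had a read of it, against 80% and 62.7% in Br53T1 and Br53T2 and 72.5% to 91.7% in luminal mice. Its transcripts share 17.7% of their 50-base stretches with another gene. Mesenchymal markers (6542 and 9458 CPM in the Br tumors, 158.6 and 569.2 in the Br53 tumors), basal markers (at most 24.4 and at least 274.3) and luminal markers (at most 4319 and at least 5928) separated the same pairs. At low levels immune, endothelial and adipocyte markers did so too. The part of all these markers was not tested. The next were *Ndufa4l2*, at no more than 0.231 CPM, *Uqcrq* (0.73), *Ndufs7* (-0.72) and *Cox6a1* (-0.75), and by complex the values ran from *Sdha* (-0.62) to *Sdhb* (-0.30) in II, from *Uqcrfs1* (-0.28) to *Uqcrq* in III, from *Cox6b2* (-0.98) to *Cox7a1* (1.32) in IV and from *Atp5g2* (-1.05) to *Atp5l* (1.20) in V. Pairs of mice that do not overlap are common at this size: it was so for 10 members higher (12.5%, against 19% of all genes) and 5 lower (6.25%, against 12.9%).

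Between the Br53 and the 53 luminal mice, which differ in *Brca1*, edgeR called 0 of 80 members and 0 of 13709 genes (0.0% in each direction). DESeq2 called 0 members and 582 of 13709 genes, and limma called 0 members and 0 genes. In edgeR 1 member was lower at an unadjusted p under 0.05 (1.25%, against 2% of all genes) and 0 were higher (against 2.97%). The log2 fold change was below 0 for 54 of 80 members (67.5%, against 46.9%), and for 40 of 80 when scaled by library size alone. The median was -0.13 against 0.08 over all genes, and 0.001 against 0.20 with that scaling. It depended on single mice, being -0.311 without vBr53L, -0.283 without v53L, 0.034 without pBr53L and 0.090 without p53L. The pairs of mice did not overlap for 16 members that were higher (20%, against 20.1%) and 16 that were lower (20%, against 11%). That member was the complex I gene *Ndufb11*, with 185.4 CPM in vBr53L and 118.8 in pBr53L against 308.7 in v53L and 219.2 in p53L (-0.93 ± 0.36, SE, edgeR adjusted p = 0.867). *Uqcrfs1* (-0.89), *Atp5d* (-0.75), *Cox7a2l* (0.71) and *Ndufs1* (0.85) followed by p, and *Ndufa12* (1.02), *Sdha* (-0.59), *Sdhc* (0.32), *Uqcrh* (0.39), *Cox6b2* (-0.72) and *Atp5l* (0.80) were the remaining extremes of their complexes. *Cox4i2*, the alternative subunit of complex IV, had 331 reads in vBr53L (4.87 CPM), 10 in pBr53L and 0 in both 53 mice. The Br53 mice were on chip SC7 and the 53 mice on SC9, so genotype and chip cannot be told apart. Immune markers (at least 65.8 CPM in a Br53 and at most 10.6 in a 53 mouse) and proliferation markers (at least 351.3 and at most 286.9) also separated these pairs. So did endothelial, adipocyte and muscle markers at low levels. The part of these markers was not tested.

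Within each mouse the cells differed widely in the share of their reads in the 83 genes. The median cell had 1.44% in v53L, 1.45% in vBrL and 1.69% in vBr53L, and 1.77% in pBrL-1, 1.88% in pBrL-2, 1.66% in pBr53L and 2.02% in p53L. Tumor medians were 1.26% (Br53T2), 1.31% (BrT2), 1.43% (Br53T1) and 1.51% (BrT1). The lowest cell of all had 0.169% (Br53T2) and the highest 4.27% (p53L), and the coefficient of variation over cells was 19.7% in pBrL-1 and up to 42.2% in Br53T2. The pregnant mice had the highest medians, except that pBr53L lay below vBr53L. After thinning to 100000 reads, the median cell had a read in 59 (Br53T2) to 69.5 (pBrL-2) of the 83 genes, and the lowest cell in 19. Across the cells of a mouse, the shares of complexes I and V correlated with a Spearman rho of 0.39 to 0.75 in 11 of 11 mice, and those of I and IV with 0.41 to 0.91. These shares have the same denominator and amplification, and the share of the members also went with that of ribosomal protein genes in 10 of 11 mice (rho from -0.29 to 0.86), so no more is read from them.

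**Figure D5:**
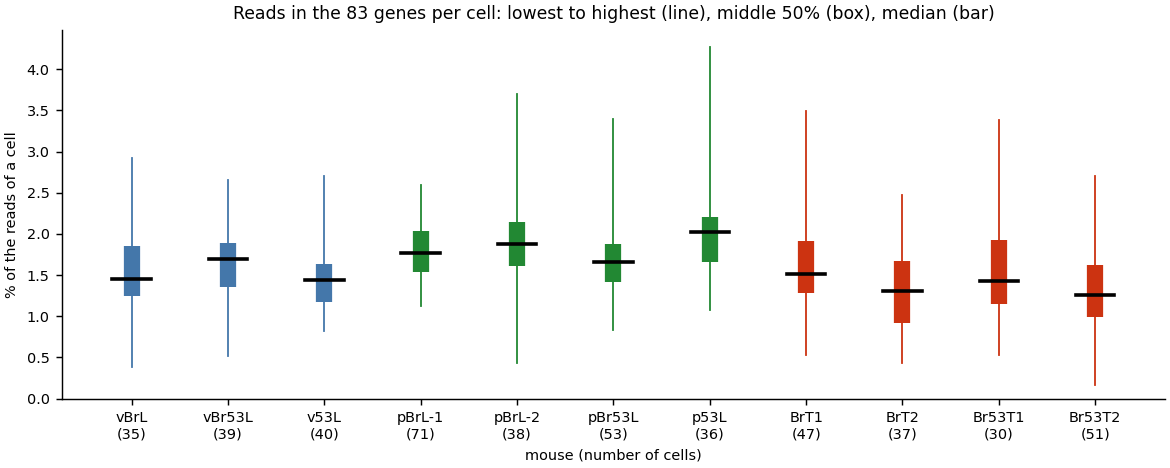
Share of the reads of a cell in the 83 genes (y axis, percent) for each mouse (x axis, with the number of cells), as the lowest to the highest cell (line), the middle 50% of the cells (box) and the median (black bar). Medians are 1.66% to 2.02% in pregnant mice, 1.44% to 1.69% in virgin mice and 1.26% to 1.51% in tumors, and the ranges of the cells overlap in all mice.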

How the data were processed

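The data are RNA-seq reads of single cells isolated on Fluidigm C1 chips, amplified with SMARTer chemistry as full-length cDNA and sequenced without molecular identifiers. The authors filtered and trimmed the reads (sickle, Trim Galore 0.4.1), aligned them to mm10 with STAR 2.5.3a and deposited raw counts per gene and cell made with Subread 1.5.3. PCR copies are therefore counted separately, and intervals cover counting error only. The annotation, strand use and treatment of multi-mapping reads are not given in the sources used here. By 50-base stretches of GENCODE vM21 transcripts, 35 members share none with another gene and 19 share at least 10%, so counts of the latter are less certain. Exons of 28 members overlap another gene.

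Members and lists were chosen with earlier results of these data known. Counts were summed over the cells of a mouse (40338926 to 115827852 reads) and tested over all genes with edgeR 4.0.16 in R 4.3.3 (filterByExpr, TMM, quasi-likelihood test, Benjamini-Hochberg). The SE is the log2 fold change divided by the root of its F statistic. Replicates are taken as mice. Each group label is counted as 1 mouse, except pBrL, whose cells on chips SC5 and SC6 are counted as pBrL-1 and pBrL-2. Whether these are different mice cannot be checked from the counts. Genes named were, per comparison, the largest rise and fall of each complex and the 5 smallest p-values, and over all mice the highest level per length, the isoform families, members without overlap and the extremes of each tumor. Alternatives were DESeq2 1.42.0, limma 3.58.1 on log2(mean CPM + 1), other scalings, filters, cells, covariates and mice. Cells were thinned to 100000 reads for shares, which left out 0 cells. The fits were also run on simulated counts with planted changes larger than most of those reported here, which says nothing on their power at these sizes. Doublets had been looked for by microscope by the authors and were not called again. Promoters are from RefSeq (GRCm38.p6). Not every member had a promoter in that table, and some genes are not reported here.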

Additional observations from a re-analysis of the deposited data

Results flagged for a closer look

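For 50 quantities (summed CPM values and named genes), 193 pairs of quantity and group were examined for a mouse far from the rest, and 15 stood out. Many genes were named for extremes in these same values and the groups share mice. The chance rate of the rule, about 1 in 20, therefore does not apply to this count. BrT1 stood above the other tumors in the summed CPM of complex II, with 1021 against 643.4 to 668.0, and below them in *Ndufa3*, with 35.9 against 108.2 to 115.5. Br53T2 stood above the other tumors in *Cox6b1* (295.6 CPM against 197.8 to 208.2). The mouse p53L stood above the other pregnant mice in the summed CPM of complex IV (4541 against 3835 to 3902) and in *Cox6a1* (1707 against 1236 to 1296), and above the other luminal mice in *Uqcr10* (239.0 against 134.5 to 178.6). In *Cox6a1*, vBrL was low among the Brca1-deficient luminal mice (811.2 against 1236 to 1320). The mouse pBrL-2 was low in *Atp5s* among all luminal and among the Brca1-deficient luminal mice (5.00 CPM against 12.8 to 17.9) and high in *Sdhc* among the latter (189.4 against 110.3 to 133.0). In vBr53L *Cox4i2* was high among luminal and among Brca1-deficient luminal mice (4.87 CPM against at most 0.725). The mouse v53L was high in *Ndufa13* (252.3 against 140.5 to 178.3). In pBr53L *Ndufb11* was low among the pregnant and among the Brca1-deficient luminal mice (118.8 CPM against 183.7 to 219.2).

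Pregnant minus virgin, the median log2 difference of the members was 0.352 in the 53 mice on chip SC9 and -0.084 in the Br53 mice on chip SC7. With 1 mouse for each stage and genotype, the difference was not tested.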

How the results depend on the processing

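The median log2 fold change of the members in tumors against Brca1-deficient luminal mice stayed below 0 in all 20 alternatives, and scaling by library size alone moved it from -0.377 to -0.230. The number of members called there was 4 with DESeq2 and 2 with all 7 luminal mice, and in pregnancy it was 1 with DESeq2, each against 0. Leaving out 1 mouse gave pregnancy medians of 0.041 (without v53L) to 0.266 (without vBr53L), with 17 to 33 members below 0. At both of these ends the other mouse of that genotype also loses its weight in the stage effect, so a pair is dropped. Br53 against 53 luminal medians ran from -0.311 (without vBr53L) to 0.090 (without p53L), so their sign depends on 1 mouse. Over all genes, the calls in tumors were 79, against 814 with DESeq2, 296 with limma, 124 by library size alone, 129 with no filter, 213 with all 7 luminal mice, 52 in cells with 4000 genes or more, 44 against pregnant and 0 against virgin luminal mice alone, and 11 to 94 without 1 mouse. In pregnancy they were 2, against 0 to 1044. Between tumor genotypes they were 0, against 315 with DESeq2 and 295 with no filter. Between luminal genotypes they were 0, against 582 with DESeq2 and 80 with no filter. Some fits without 1 mouse also called genes in both comparisons.

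Genes named by rule changed sign in 26 cases, none of them called, and over all members 23 of 79 changed sign under at least 1 alternative in tumors, 39 of 80 in pregnancy, 52 of 80 between tumor genotypes and 44 of 80 between luminal genotypes. In tumors *Sdhc* was -0.075 against pregnant luminal mice alone and -0.011 to 0.265 without 1 mouse. In pregnancy, cells with 4000 genes or more gave *Cox7a1* -0.021, *Cox8b* 4.491 and *Sdha* -0.382, and chip in place of genotype gave *Cox8b* 3.384 and *Uqcrb* 0.145. Without 1 mouse *Cox8b* ran from -2.169 to 3.353, *Ndufs5* from -3.388 to 0.671, *Sdha* from -0.175 to 0.181 and *Uqcrb* from -0.460 to 0.117. Between tumor genotypes *Atp5g2* ran from -3.238 to 0.763, *Cox6b2* from -12.419 to 11.754, *Sdhb* from -0.735 to 0.314 and *Uqcrfs1* from -0.588 to 0.092. Between luminal genotypes *Cox6b2* was 0.942 in cells with 4000 genes or more and 0.521 with 30 cells per mouse, and -1.798 to 0.152 without 1 mouse. Fitted values of *Cox8b* and *Cox6b2*, which have mice at or near 0 reads, depend on the prior count and are no fold. The cause of these changes was not tested. Where 1 mouse remained in an arm of a genotype comparison, it was assumed to vary like the other mice. In the pregnancy fit, a genotype left in 1 stage carried no weight in the stage effect, because the genotype covariate took it up. No paired analysis was possible because the replicate numbers pair no mice across groups. Shared chips entered through the fit with chip in place of genotype and the within-chip differences.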
